A study of Rattus norvegicus with 15 samples.

Results

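Guanylin, encoded by Guca2a, and uroguanylin, encoded by Guca2b, are small peptides that the gut epithelium secretes, and guanylate cyclase C, encoded by Gucy2c, is the receptor to which both bind. These 3 genes were taken as the members because they are the probes whose gene name in the scanner files was one of those symbols. Each gene had 1 probe, so 3 of 41012 probes and 3 of 33099 tested genes are described. The rat samples were untreated mucosal cell suspensions from 5 segments of the digestive tract: stomach, duodenum, jejunum, ileum and colon. Each segment had 3 samples, for a total of 15. They came from male Sprague Dawley rats per the labels, which give no strain or sex for ileum 3 and no age for any sample. Cells were released from inverted segments by a brief pronase treatment and enriched by elutriation, per the series text, so the suspensions hold a mixture of mucosal cell types. RNA of each sample was labelled with Cy3 or Cy5 and read on Agilent whole-genome rat arrays. The series text speaks of 3 independent isolations but does not tie them to animals. The p-values then reflect the spread among isolations, which may be technical.

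The receptor sits in the apical membrane of intestinal epithelial cells. When guanylin or uroguanylin binds, its inner domain makes cyclic GMP, which acts through the kinase encoded by Prkg2 to open the CFTR chloride channel and to hold back the sodium/proton exchanger encoded by Slc9a3. Fluid and bicarbonate secretion follow. The heat-stable toxin of Escherichia coli acts on the same receptor. Guanylin has long been known as the more distal peptide and uroguanylin as the more proximal one, and the comparison of the 5 segments sets each gene beside that background.

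The probes are shown because every value given for a member comes from 1 stretch of 60 bases. Both ligand genes lie on chromosome 5, and RefSeq (assembly GRCr8) lists no other gene between them. On build rn4 the Guca2a probe matched the plus strand at chr5:140229086-140229145 and the Guca2b probe the minus strand at chr5:140237201-140237260, per the scanner files, with 8055 bases between them. The Gucy2c probe matched the minus strand at chr4:173738809-173738868. The last 30 bases of the Guca2a probe hold the polyadenylation hexamer, in capitals, which marks the end of many transcripts. For Guca2b the first 30 bases are given. The whole Gucy2c probe is given, and 1 of its 3 forward reading frames is free of stop codons.
Guca2a probe, bases 31 to 60: taaccctctgtcAATAAAtggagctactgt
Guca2b probe, bases 1 to 30: catagcaagacaatatggatgcagagccgc
Gucy2c probe: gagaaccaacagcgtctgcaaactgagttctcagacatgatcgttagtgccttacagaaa

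The neighbouring ligand genes point towards each other, so the sequences before their starts lie at the outer ends of the pair. RefSeq promoter windows of GRCr8 matched 2 of the 3 members. The 250 bases before each start are shown because the ligands ran in opposite directions along the bowel, with matches of the searched motifs in capitals. The Guca2a stretch is chr5:138522196-138522445 on the plus strand and the Guca2b stretch is chr5:138534211-138534460 on the minus strand.
Guca2a: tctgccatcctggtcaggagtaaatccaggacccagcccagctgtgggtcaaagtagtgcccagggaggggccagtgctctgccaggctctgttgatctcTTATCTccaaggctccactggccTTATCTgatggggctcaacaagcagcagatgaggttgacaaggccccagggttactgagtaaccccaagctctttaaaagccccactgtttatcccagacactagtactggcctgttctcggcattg
Guca2b: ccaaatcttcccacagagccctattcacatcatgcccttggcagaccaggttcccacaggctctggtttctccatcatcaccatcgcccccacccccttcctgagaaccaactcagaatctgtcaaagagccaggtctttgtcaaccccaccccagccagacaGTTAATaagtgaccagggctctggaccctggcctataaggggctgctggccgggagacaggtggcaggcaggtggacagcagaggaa
Searched on both strands, neither stretch held the palindromic HNF1 motif (0.00299% of 33469 RefSeq windows of this length), the CDX motifs TTTATGG (2.7%) and TTTATTG (4.08%), the HNF4 motif CAAAGTCCA (0.338%) or TATAAA (12.9%). After the sequences had been read, the GATA motif AGATAA and the partial HNF1 motif GTTAAT were added. AGATAA was found 2 times before Guca2a, on the reverse strand, with left ends 150 and 127 bases before the start (10.3% of windows hold it), and not before Guca2b. GTTAAT was found once before Guca2b, with its left end 87 bases before the start (6.45% of windows). These matches describe letters in a window and no factor was measured on them.

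Depth differed between the arrays. Between 44.4% and 97.1% of probes were well above background in a sample, with a more lenient limit in the stomach files, and median processed intensities ran from 92.4 to 1048. Segment markers matched their labels: the mean level of the gastric genes Atp4a, Muc5ac and Gkn1 was 5.80 to 6.50 in the stomach and at most 0.05 in the bowel samples, although Gkn1 alone stood at 4.20 in the duodenum. The bile acid binding protein gene Fabp6 was at 5.62 in the ileum and at most -0.53 on average in any other segment, and Car1, a colonocyte carbonic anhydrase, was at 6.98 in the colon and at most 1.42 elsewhere. The duodenal factor Pdx1 was at 2.89 in the duodenum and 1.19 in the jejunum. Levels here and in what follows are log2 processed intensities relative to the 75th percentile of the sample, so that a level compares samples for 1 probe and not 1 probe with another. In comparisons with the stomach the median of all genes lay between -0.32 and -0.26, which the members' differences below include.

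All 3 members differed between segments, and all had their lowest levels in the stomach. All 3 were higher in the duodenum than in the stomach, Guca2a by 5.82 ± 0.40 on the log2 scale (SE, 56.5-fold, adjusted p = 1.63e-08, limma), Gucy2c by 5.55 ± 0.36 (46.8-fold, adjusted p = 7.98e-09) and Guca2b by 3.68 ± 0.42 (12.8-fold, adjusted p = 5.12e-06). Along the bowel they parted. From duodenum to colon Guca2a rose by 2.40 ± 0.46 (5.27-fold, adjusted p = 0.00124), Gucy2c rose by 2.62 ± 0.41 (6.17-fold, adjusted p = 0.000227) and Guca2b fell by 1.83 ± 0.47 (3.55-fold, adjusted p = 0.0105). The F test over the segments called all 3 members (adjusted p of 8.47e-10 for Guca2a, 1.24e-06 for Guca2b and 1.08e-09 for Gucy2c), against 42.2% of all genes. The duodenum was higher than the stomach at adjusted p under 0.05 for 10.3% of genes, and the colon was higher than the duodenum for 11.5% and lower for 11.9%. That split moved with the scaling, to 13.5% and 8.36% with normexp background correction and to 6.59% and 15.7% with the percentile taken over probes detected in all samples, as the median of all genes in that comparison moved from 0.02 to 0.27 and -0.26. The 3 members kept their directions from duodenum to colon under each. The Guca2a rise was smaller with normexp, which starts from the signals before the scanner software's scaling, at 1.37 (adjusted p = 0.014, limma). Apart from duodenum and jejunum, no segments shared a slide or scan day, so for the other pairs segment and array batch cannot be told apart. In these mixed suspensions fewer cells of a type and less RNA per cell cannot be told apart.

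**Figure D1:**
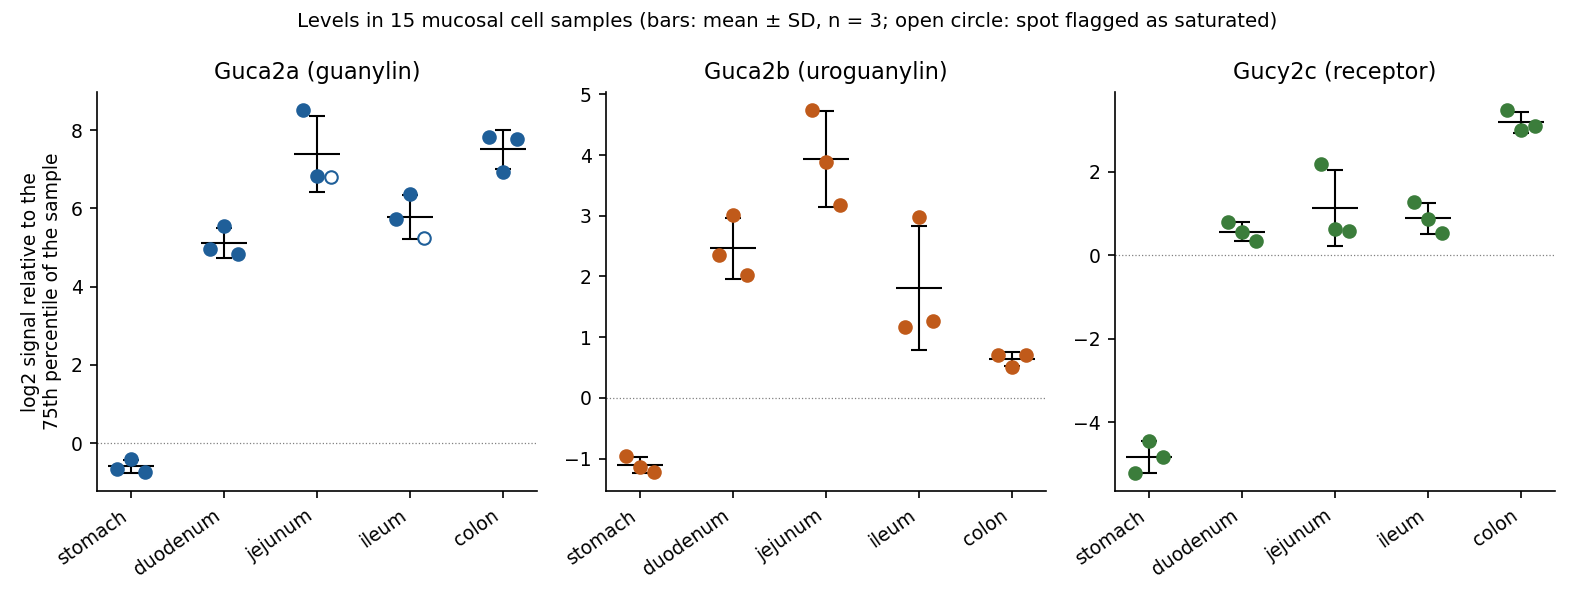
Log2 signal relative to the 75th percentile of the sample (vertical axis) for Guca2a, Guca2b and Gucy2c in the 3 samples of each segment (points), with the mean ± SD as bars. The stomach is lowest in each panel, Guca2b peaks in the jejunum at 3.93 and falls to 0.64 in the colon, and Gucy2c is highest in the colon at 3.19. The Guca2a points of the jejunum and of ileum 3 are at the scanner limit.

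Guca2a was read at -0.65, -0.40 and -0.74 in stomach 1 to 3 and at 4.96, 5.54 and 4.83 in duodenum 1 to 3. The jejunum gave 8.51, 6.84 and 6.80, the ileum 5.72, 6.36 and 5.24, and the colon 7.83, 6.93 and 7.76. Every bowel sample lay far above every stomach sample. The 3 jejunal readings and that of ileum 3 were at the scanner limit and are lower bounds, so the jejunum and ileum have no place of their own in the order of means. Among the segments with no spot at the limit the mean ± SD (n = 3) was 7.51 ± 0.50 in the colon, 5.11 ± 0.38 in the duodenum and -0.60 ± 0.17 in the stomach.

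The scanner limit bore on several Guca2a spots. The scanner software flagged the spot as saturated in jejunum 3 and in ileum 3, where 119 of 120 and 121 of 121 pixels were saturated. The unflagged spots of jejunum 1 and jejunum 2 had 44 of 105 and 23 of 117 saturated pixels, and their raw signals stood at 98.8% and 96.2% of the limit. All 3 jejunal spots thus held saturated pixels, and their normalised levels followed where the limit fell in each sample, so neither the mean nor the SD of the jejunum measures Guca2a there. A spot at the limit would have had a level of 8.53 in jejunum 1, 6.89 in jejunum 2 and 6.80 in jejunum 3, against 5.24 in ileum 3. Ileum 1 and 2 stood at 48.4% and 80.3% of the limit, the duodenal samples at 16.5% to 18.9% and the colonic ones at 15.9% to 64.4%, for which the files used here give no pixel counts. The stomach spots had no saturated pixel and raw signals of 299.5 to 586.5 over a local background of 28 to 42.

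**Figure D2:**
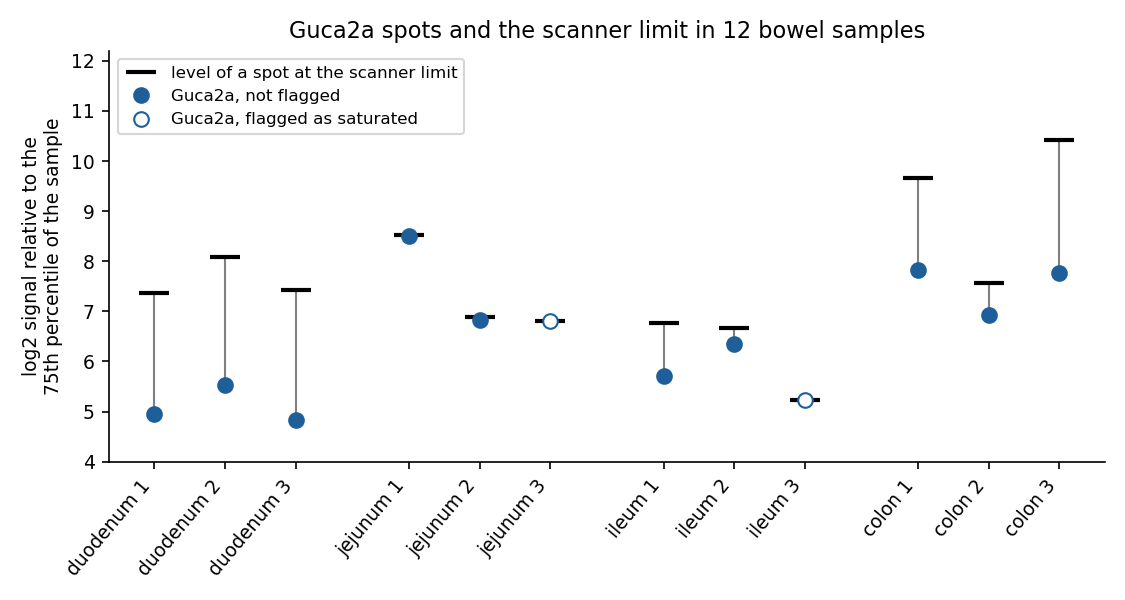
Guca2a level (circles, log2 signal relative to the 75th percentile of the sample) and the level that a spot at the scanner limit would have in the same sample (black dashes) for the 12 bowel samples. The circles of jejunum 1, 2 and 3 and of ileum 3 lie within 0.06 of the dash, while the duodenal ones lie 2.40 to 2.60 below it.

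Guca2a as read was higher in the jejunum than in the duodenum by 2.16 ± 0.32 (4.46-fold, a lower bound, adjusted p = 0.00368, limma), a step called upwards for 0.272% of genes. Duodenum and jejunum samples shared arrays in pairs with opposite dyes, and within these the jejunum was higher by 1.84 on the array of duodenum 1, 2.97 on that of duodenum 2 and 2.01 on that of duodenum 3. The direction was the same in all 3 arrays and on both scan days, and with the jejunal spots at the limit these are lower bounds too. The call was lost without duodenum 1 (adjusted p = 0.276), without jejunum 3 (0.0779) and without the array block (0.0544), with steps of 1.89, 2.39 and 2.16.

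Further down, the size of the Guca2a steps could not be measured. As read, ileum minus jejunum was -1.73 ± 0.40 (adjusted p = 0.0235, limma), but 4 of the 6 spots were at the limit and the value follows where the limits fell, so it is neither a measured step nor a bound. The same holds for colon minus jejunum. Colon minus ileum was 1.97 ± 0.49 as read (adjusted p = 0.0111, limma), a step called upwards for 7.79% of genes, and ileum 3 at the limit makes it an upper bound. Without every spot that held a saturated pixel, which leaves ileum 1 and 2, it was 1.61 and called (adjusted p = 0.0231). With only the flagged spots left out it was also 1.61 and not called (adjusted p = 0.052), and with a replicate block 1.78 and not called (0.0563). Quantile normalisation gave 0.25 (0.665) and normexp -0.17 (0.786), neither called. Ileum minus duodenum was 0.43 as read (95% interval -0.47 to 1.33, adjusted p = 0.711), a lower bound with ileum 3 at the limit, and was called with quantile normalisation (1.64, adjusted p = 0.00273) and normexp (1.54, adjusted p = 0.029). The colon minus duodenum rise, which involves no spot near the limit, stayed called under both (1.89, adjusted p = 0.000285, and 1.37, adjusted p = 0.014). Its size also rests on the scanner software's scaling. Processed over raw signal for Guca2a was 8.34, 1.95 and 7.84 in colon 1 to 3, against 2.81 to 4.31 in the duodenum. Raw signals, not adjusted for the depth of each sample, were 18384, 42184 and 10428 in colon 1 to 3 and 10779 to 12349 in the duodenum.

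Guca2b, the uroguanylin gene, was read at -0.95, -1.14 and -1.22 in the stomach and at 2.36, 3.01 and 2.02 in the duodenum. The jejunum gave 4.74, 3.89 and 3.18, the ileum 1.18, 2.98 and 1.26, and the colon 0.71, 0.50 and 0.71. The jejunal samples were all above the duodenal ones, ileum 2 stood with the duodenum while ileum 1 and 3 lay lower, and the colonic samples were tightly grouped between the stomach and the ileum. No Guca2b spot was saturated, and in the colon its raw signals of 266 to 500 were 6.91 to 10.9 times the local background.

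The order of the Guca2b means was jejunum 3.94 ± 0.78, duodenum 2.47 ± 0.50, ileum 1.81 ± 1.02, colon 0.64 ± 0.12 and stomach -1.10 ± 0.14 (SD, n = 3). Neighbours in that order were often not separated: jejunum minus duodenum was 1.36 ± 0.34 (adjusted p = 0.0981, limma), ileum minus duodenum -0.88 (95% interval -1.81 to 0.05, adjusted p = 0.374) and colon minus ileum -0.95 (-2.01 to 0.11, adjusted p = 0.227). Within the shared arrays the jejunum exceeded the duodenum by 0.82, 1.73 and 1.86. The fall from jejunum to ileum was called, at 2.24 ± 0.42 (4.72-fold, adjusted p = 0.00652), a step called downwards for 2.83% of genes. So was that from jejunum to colon, at 3.19 ± 0.48 (9.11-fold, adjusted p = 0.000162), a fall called for 13.1% of genes. The colon remained above the stomach by 1.85 ± 0.48 (3.61-fold, adjusted p = 0.00692), a rise called for 14.3% of genes. Raw Guca2b signals in the stomach, 242.9 to 426.3 at 9.55 to 10.6 times the local background, overlapped those of the colon. This difference thus rests on the scaling to each sample's 75th percentile, which was 2349 to 2596 in the stomach and 377.4 to 674.6 in the colon.

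Gucy2c, the receptor gene, was read at -5.22, -4.44 and -4.85 in the stomach and at 0.79, 0.55 and 0.35 in the duodenum. The jejunum gave 2.19, 0.62 and 0.59, the ileum 1.27, 0.86 and 0.53, and the colon 3.48, 2.99 and 3.10. All colonic samples were above all others, jejunum 1 stood apart from the rest of the small bowel, and otherwise the 3 small bowel segments overlapped. The same jejunum 1 gave the highest level of Guca2b as well.

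The order of the Gucy2c means was colon 3.19 ± 0.26, jejunum 1.13 ± 0.91, ileum 0.89 ± 0.37, duodenum 0.56 ± 0.22 and stomach -4.84 ± 0.39 (SD, n = 3). Within the small bowel no pair was called: jejunum minus duodenum was 0.42 (95% interval -0.19 to 1.04, adjusted p = 0.798, limma), ileum minus jejunum -0.39 (-1.15 to 0.36, adjusted p = 0.569) and ileum minus duodenum 0.03 (-0.78 to 0.84, adjusted p = 0.984). The step from ileum to colon was 2.59 ± 0.44 (6.04-fold, adjusted p = 0.000694), and the colon also exceeded the jejunum by 2.20 ± 0.42 (4.60-fold, adjusted p = 0.00109), a rise called for 12.5% of genes. In the stomach the Gucy2c spot was dim, with raw signals of 63.3 to 80.1 at 1.95 to 2.86 times the local background, though flagged as well above background in all 3 samples. Duodenum minus stomach was 3.75 with normexp and 6.02 with quantile normalisation, called under both.

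Fitted as 1 trend over duodenum, jejunum, ileum and colon, Gucy2c rose by 0.75 ± 0.13 per segment (adjusted p = 0.000711, limma) and Guca2a by 0.55 ± 0.15 (adjusted p = 0.0135), while Guca2b fell by 0.77 ± 0.15 (adjusted p = 0.00174). Of all genes 12.1% were called higher towards the colon and 12.1% lower (13.5% and 9.25% with normexp, 7.47% and 14.4% with the percentile over probes detected in all samples). The Guca2a trend includes the jejunal readings at the limit. It was 0.56 without the flagged spots (adjusted p = 0.0172) and was not called with normexp (0.34, adjusted p = 0.0639), without duodenum 1 (0.48, 0.0571) or without colon 3 (0.48, 0.0515). The trends of Guca2b and Gucy2c were called in each alternative run. The Gucy2c trend came from the colon, since the small bowel segments were not separated.

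**Figure D3:**
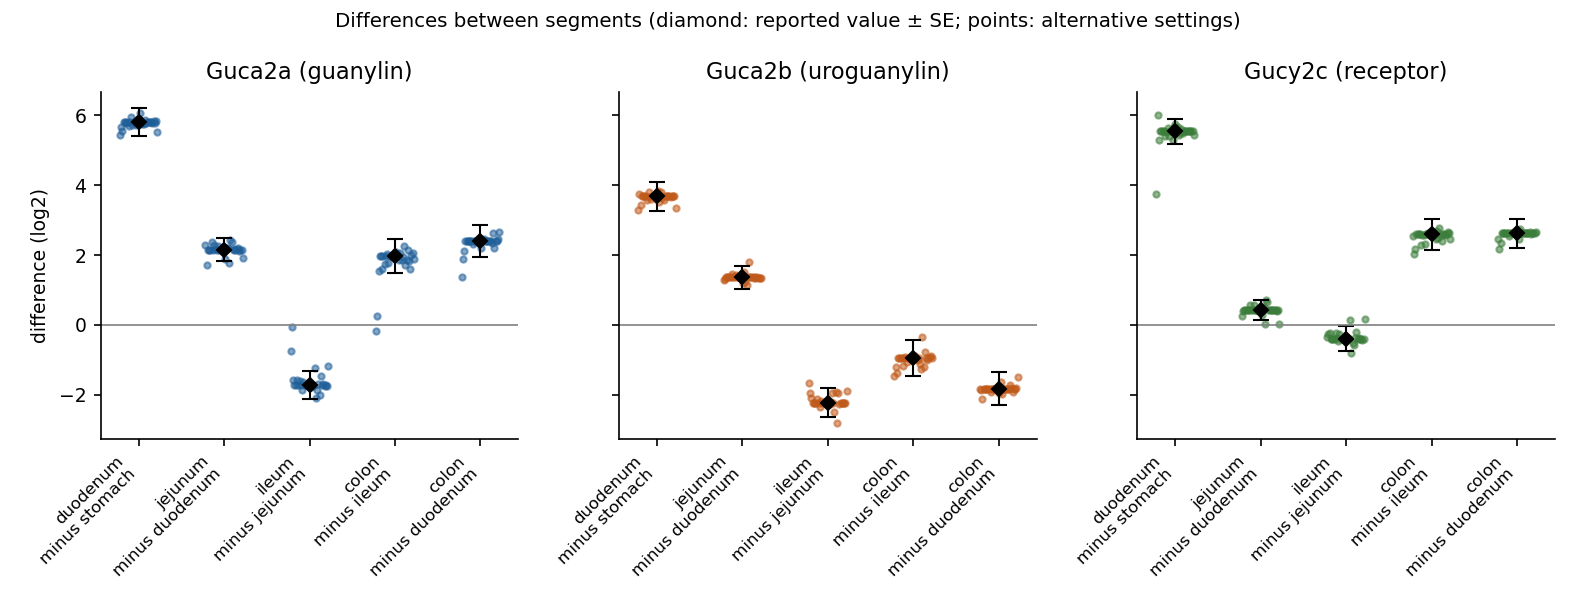
Differences between segments on the log2 scale for each member as reported (diamonds, with the SE) and under each alternative setting of the processing or with samples left out (points). The points of colon minus duodenum stay above 0 for Guca2a and Gucy2c and below 0 for Guca2b, while the Guca2a steps into and out of the ileum reach or cross 0.

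The ligand signals shifted against each other. Both probes were read on the same array in each sample, so a factor common to the whole sample drops out of the difference of their log2 signals. The scanner software's own scaling was not common to both probes in every sample: processed over raw signal was 8.34 for Guca2a and 4.05 for Guca2b in colon 1 and 7.84 and 2.32 in colon 3, against 1.95 and 1.91 in colon 2. The difference is therefore also given before that scaling, with the local background subtracted, a choice made after seeing the data. Its size within a sample depends on the probes and is not a ratio of molecules, but its change between samples can be compared. The difference, Guca2a minus Guca2b, was 2.60, 2.52 and 2.81 in duodenum 1 to 3 and 3.77, 2.95 and 3.63 for the jejunal samples. It reached 4.54, 3.38 and 3.98 for the ileal and 7.12, 6.43 and 7.05 for the colonic samples. In the stomach it was 0.30, 0.74 and 0.48. Before the scaling it was 2.52, 2.84 and 2.86 in the duodenum and 6.24, 6.54 and 5.51 in the colon, with 3.66, 2.89 and 4.28 for the jejunum and 5.05, 3.44 and 4.84 for the ileum. On both scales the colonic samples stood above all others and the duodenal ones below all other bowel samples. The jejunal values and that of ileum 3 rest on Guca2a spots at the limit and are lower bounds, so jejunum and ileum were not compared.

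Over the 12 bowel samples the difference as read widened by 1.32 per segment, 2.50-fold (two-sided permutation test, 100000 resamples, p = 5e-05). The permutations treat the 12 samples as independent, although duodenum and jejunum shared arrays and the colon samples name 1 slide. The permutation p-values of these slopes may therefore be too small. The jejunal values and that of ileum 3 entered the slope as lower bounds. The difference widened by 1.33 with every Guca2a spot known to hold a saturated pixel left out, which removes the jejunum and ileum 3 (permutation p = 0.00866). The colon files used here give no pixel counts, so the colonic spots were kept. With normexp the difference widened by 1.04, and before the scanner software's scaling by 1.09 (permutation p = 0.00012). From duodenum to colon, where no spot was at the limit, it widened by 4.22, 18.7-fold, and before the scaling by 3.36, 10.2-fold. Colon minus ileum was 2.91 and, before the scaling, 1.65, both upper bounds, and jejunum minus duodenum was 0.81, a lower bound. Each of the 3 pairs had p = 0.1 in the two-sided exact permutation test of the values as read, the smallest that 3 against 3 samples allow, and 0.1 after adjustment over these pairs. Within the shared arrays jejunum minus duodenum was 1.03, 1.24 and 0.14 as read, higher in 3 of 3.

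**Figure D4:**
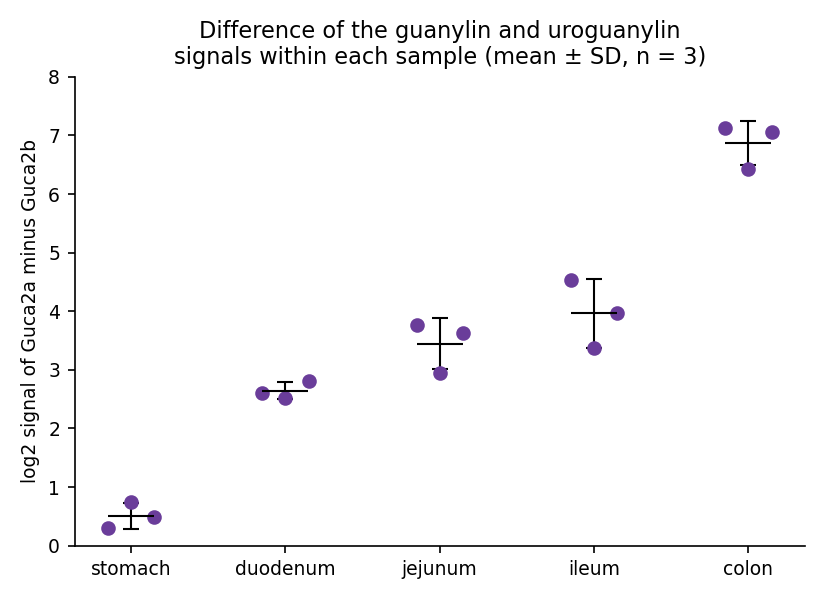
Difference of the log2 signals of Guca2a and Guca2b (vertical axis) in each of the 15 samples (points) with the mean ± SD per segment as bars. The duodenal samples lie between 2.52 and 2.81 and the colonic ones between 6.43 and 7.12, with no overlap. The jejunal points and that of ileum 3 are lower bounds, with Guca2a at the scanner limit.

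Markers of several cell types also differed between the segments. For the counts of rising and falling markers in this and the next paragraph, the shares over all genes were 12.1% and 12.1%. Mean levels of 6 goblet cell genes (of 9 listed, among them Muc2, Tff3 and Zg16) were 1.38 to 1.59 in the stomach and 4.25 to 4.51 in the duodenum. They reached 5.04 to 5.99 in the jejunum, against 3.93 to 4.74 for the ileum and 4.87 to 5.13 for the colon. Along the bowel 2 of the 6 rose, the mucin gene Muc2 (0.49 per segment, adjusted p = 0.00505, limma) and the factor Spdef (0.70, adjusted p = 0.000335). None fell as reported, and 1 fell with quantile normalisation and with the percentile over probes detected in all samples. The trends of Zg16 (-0.34, adjusted p = 0.0621), Tff3 (-0.23) and Clca1 (-0.21) were below 0 and not called, and the list's median was -0.08 (0.06 with normexp). Several goblet cell spots were themselves saturated in some samples.

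The mean over 8 absorptive enterocyte genes was highest in the jejunum and lowest of the bowel in the colon, as Guca2b was. It was 3.50 to 3.80 in the duodenum and 4.20 to 5.67 in the jejunum. In the ileum it was 2.47 to 3.45 and in the colon 1.33 to 1.42. Of the 8 genes 5 fell towards the colon, led by the sucrase gene Si (3.09 per segment on the log2 scale) and the alkaline phosphatase gene Alpi (2.62). None rose as reported, and 1 rose with normexp and with quantile normalisation. The genes did not all run alike: Krt20 was higher in the colon (7.34) than in the duodenum (5.97), by 1.37 (adjusted p = 0.0125, limma). Cdh17 and Anpep were not called in that comparison. Of 5 endocrine cell genes 4 fell, with mean levels of 2.90 to 3.04 in the duodenum and 1.51 to 1.67 in the colon. Of 3 tested genes that mark Otop2 and Best4 cells, an epithelial type known to carry both ligands in humans, 2 fell (Otop2 and Best4). With normexp 1 of the 3 fell. The third, Otop3, went the other way, with a trend of 0.40 that was not called (adjusted p = 0.0602, limma). Its colon minus duodenum difference of 1.405 was called (adjusted p = 0.0343), while that of Best4 was not (-1.27, adjusted p = 0.125). Of 4 colonocyte genes 3 rose along the bowel, as Gucy2c did, and 2 rose with normexp. Mean levels of the 4 were 0.14 to 0.39 in the duodenum and 2.52 to 3.30 in the colon. The gene that did not rise, Slc26a3, was at 2.93 in the duodenum and 2.82 in the colon (trend 0.01, adjusted p = 0.966, limma). Leukocyte genes averaged -0.34 to -0.12 in the ileum and at most -1.49 elsewhere, where Cd74 stood at 4.36 in the ileum. The part of any of these cell types in the members' differences was not tested.

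The rest of the pathway and transcription factors of the intestinal epithelium were read from lists by role, 75 genes of which 69 were tested. The F test called 43 of the 69 (62.3%, against 42.2% of all genes), and 16 rose and 13 fell along the bowel (23.2% and 18.8%, against 12.1% each). The lists were chosen with earlier results of these data known, so the higher shares are no finding about the pathway. All genes also included ones that passed the filter only in the stomach, with its more lenient limit (33099 tested, against 27027 without the stomach samples). The transcription factors, not part of the pathway itself, made up 14 of the 69. Of these 11 were called in the F test, 5 rose and 4 fell. The median trend of the 69 was 0.08 per segment, against 0.01 over all genes. With the percentile over probes detected in all samples 13 rose and 16 fell, and without duodenum 1 only 8 fell.

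Among 9 other tested guanylate cyclases and natriuretic peptide receptors none rose and 2 fell (median trend -0.10), against 12.1% of all genes each way. They were Gucy1a2, a subunit of the nitric oxide receptor, at -0.79 ± 0.21 per segment (adjusted p = 0.0123, limma), and Gucy2e, a membrane cyclase of sensory cells, at -0.52 ± 0.12 (adjusted p = 0.00444). The list's median turned to 0.03 with normexp. Gucy1a2 was at -1.40 in the duodenum and -3.94 in the colon, and Gucy2e at -0.35 and -1.91.

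Among 11 kinases and anchors 1 rose and 2 fell (median trend -0.06), against 12.1% of all genes each way. Prkg2, the cyclic GMP kinase of the brush border, had a stomach level of -4.97 ± 0.65, a duodenal level of -1.54 ± 0.22, a jejunal one of -1.17 ± 0.48, an ileal one of -1.69 ± 0.86 and a colonic one of -3.31 ± 0.28 (SD, n = 3). It fell by 0.59 ± 0.17 per segment (adjusted p = 0.016, limma), opposite in sign to the receptor. Prkar2a, a regulatory subunit of the cyclic AMP kinase, fell by 0.70 ± 0.18 (adjusted p = 0.00974), and was not well above background in 2 of 3 colonic samples. With normexp neither fall was called (Prkg2 -0.26, adjusted p = 0.0748, and Prkar2a -0.11, adjusted p = 0.426), and the list's median was 0.01. Prkacb, a catalytic subunit of that kinase, rose by 1.03 ± 0.11 (adjusted p = 4.12e-06), from 0.76 in the duodenum to 3.92 in the colon.

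Of 7 scaffold and microvillus genes all were called in the F test, against 42.2% of all genes. None rose and 3 fell (median trend -0.33), against 12.1% of all genes each way. Pdzk1, which tethers transporters in the brush border, fell by 1.35 ± 0.22 per segment (adjusted p = 0.000308, limma), from 0.68 in the duodenum to -3.67 in the colon. Vil1, the villin gene, fell by 0.46 ± 0.11 (adjusted p = 0.0056), and Nherf1, a scaffold of CFTR and the sodium/proton exchanger, by 0.33 ± 0.11 (adjusted p = 0.0383), not called with quantile normalisation (adjusted p = 0.0583). Nherf4, formerly Pdzd3, encodes a PDZ protein that binds the tail of guanylate cyclase C. Its level was -2.20 in the stomach and 1.92 in the duodenum, peaked at 2.53 in the jejunum and then was 1.82 in the ileum and 0.66 in the colon. Its trend of -0.46 ± 0.17 was not called (adjusted p = 0.0565), though it was with quantile normalisation (adjusted p = 0.0455) and the percentile over probes detected in all samples (adjusted p = 0.0217).

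Among 16 tested transport genes 4 rose and 2 fell (median trend 0.13), against 12.1% of all genes each way. Slc12a2, which loads chloride into the cell from the blood side, rose by 0.87 ± 0.20 per segment (adjusted p = 0.00531, limma), Slc9a2, a sodium/proton exchanger, by 0.75 ± 0.17 (adjusted p = 0.00411), and Kcne3, a potassium channel subunit needed for chloride secretion, by 0.55 ± 0.10 (adjusted p = 0.00112). Cftr, the chloride channel at the end of the pathway, rose by 0.37 ± 0.13 (adjusted p = 0.0389), from -1.35 ± 0.39 in the duodenum to -0.13 ± 0.42 in the colon (SD, n = 3), and was not called with the percentile over probes detected in all samples (0.30, adjusted p = 0.124). Slc4a7, a sodium bicarbonate cotransporter, fell by 0.60 ± 0.09 (adjusted p = 0.000148), and the potassium channel gene Kcnj15 by 0.46 ± 0.15 (adjusted p = 0.0375), to a colonic level that was not well above background in 2 of 3 samples, and its trend was -0.09 with normexp (adjusted p = 0.474). Slc9a3, the exchanger held back by the pathway, had a trend of 0.02 ± 0.11 (adjusted p = 0.9), whose sign turned with the scaling.

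Among 12 tested genes listed under cyclic GMP breakdown and export 6 rose and none fell (median trend 0.40), against 12.1% of all genes each way. With normexp 4 rose and none fell (median trend 0.20), and with the percentile over probes detected in all samples 4 rose and 1 fell. The 6 include Pde6d (0.31, adjusted p = 0.0415, limma), which encodes a subunit that does not itself break down cyclic GMP. Pde3b rose by 1.30 ± 0.17 per segment (adjusted p = 5.56e-05, limma). It was not well above background in any duodenal or jejunal sample, so its difference is a bound, with the colon at least 7.65-fold higher than the duodenum. Pde2a, a phosphodiesterase that cyclic GMP itself activates, rose by 0.79 ± 0.16 (adjusted p = 0.00211), and Pde1c by 0.59 ± 0.19 (adjusted p = 0.0347), which was not called with normexp (adjusted p = 0.118) or the percentile over probes detected in all samples (adjusted p = 0.0838). The exporters of cyclic nucleotides Abcc5 and Abcc4 rose by 0.66 ± 0.13 (adjusted p = 0.00126) and 0.47 ± 0.12 (adjusted p = 0.00786). Pde5a, the cyclic GMP phosphodiesterase that sildenafil inhibits, had a trend of -0.26 ± 0.10 (adjusted p = 0.0625), called as a fall with that percentile (-0.33, adjusted p = 0.0358).

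Of 14 tested transcription factors of the intestinal epithelium 5 rose and 4 fell (median trend 0.19), against 12.1% of all genes each way. Klf4, a factor of goblet cells and differentiated colon cells, rose by 0.79 ± 0.11 per segment (adjusted p = 7.19e-05, limma), Cdx1, a homeobox factor of the intestine, by 0.77 ± 0.15 (adjusted p = 0.00166) and Spdef, a goblet cell factor, by 0.70 ± 0.11 (adjusted p = 0.000335). Gata4, a factor of the proximal bowel, fell by 1.26 ± 0.11 (adjusted p = 5.66e-07), from 2.60 in the duodenum to -0.94 in the colon, and Hnf4g, an enterocyte factor, fell by 0.58 ± 0.13 (adjusted p = 0.00519).

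**Figure D5:**
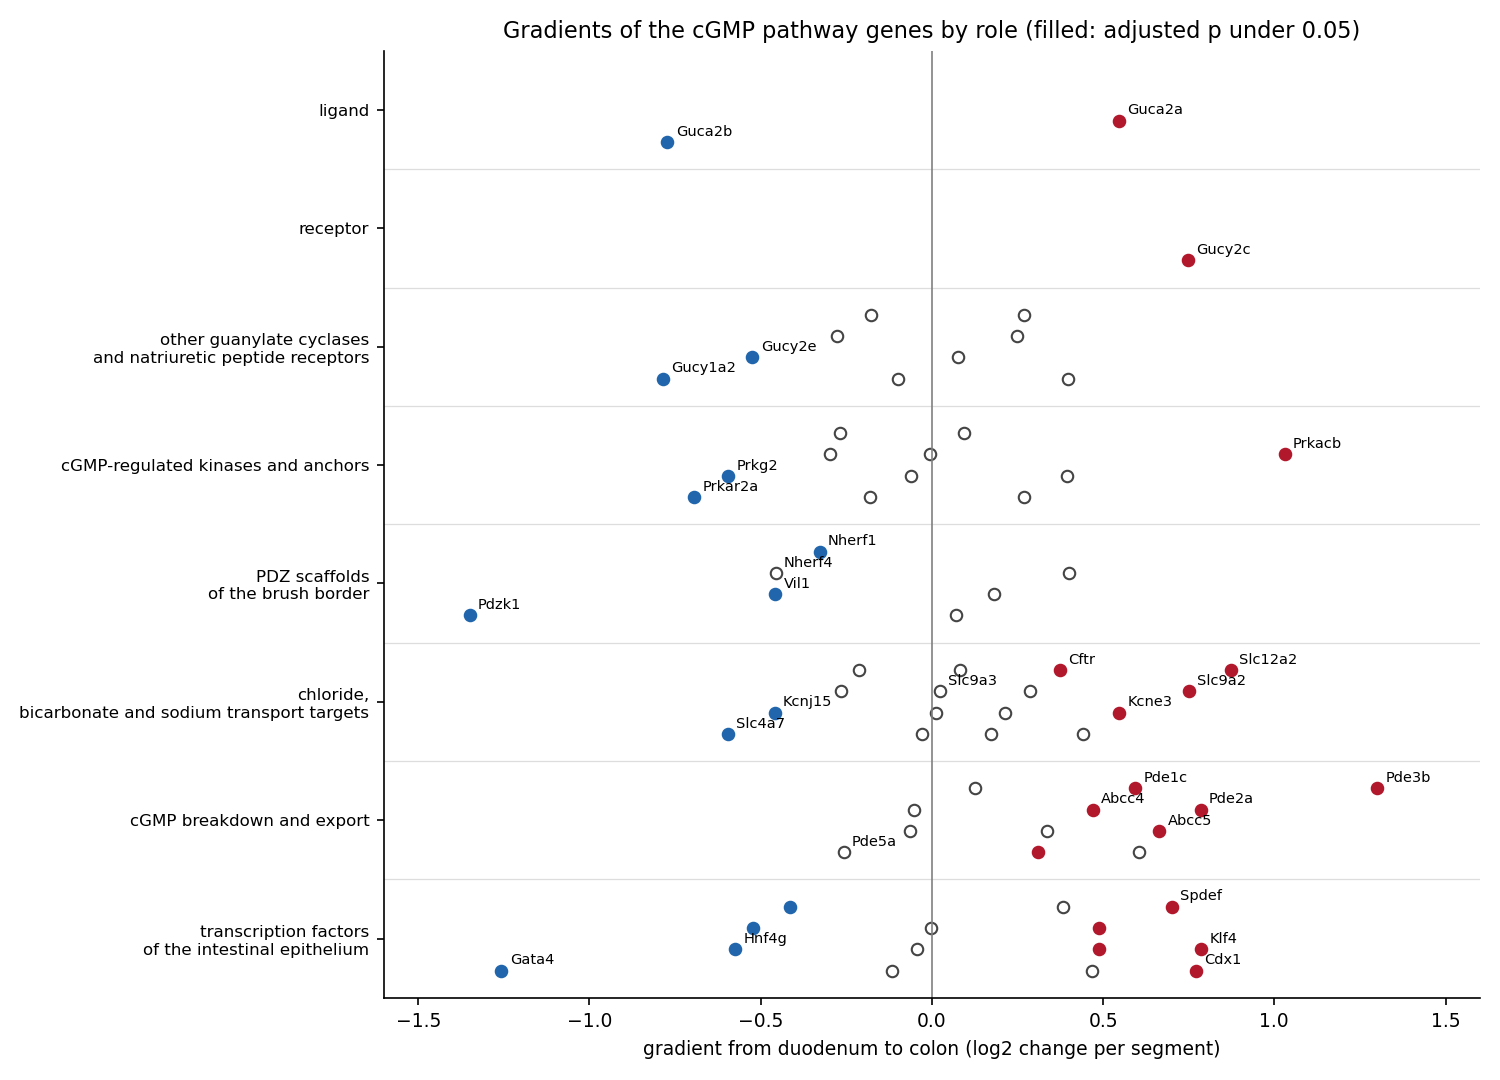
Trend from duodenum to colon (horizontal axis, log2 change per segment) for the members and the tested genes of each role list (rows), transcription factors included. Filled points mark adjusted p under 0.05, and names are given for the members and for most of the genes named in the text. Breakdown and export genes hold 6 filled points right of 0 and none left, and the scaffold genes 3 left and none right.

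Genes that ran most like each member were ranked by Pearson's r over the 15 samples among 7400 other named genes that the F test called. Because the stomach lies far below the bowel for each member, these values mainly rank likeness of that step, and r over the 12 bowel samples is given beside them. The Guca2a values include the readings at the limit, and Krt20 was itself flagged as saturated in jejunum 3, ileum 2 and ileum 3. For Guca2a they were RT1-CE16 (0.99, and 0.93 over the bowel), Krt20 (0.98 and 0.91), RT1-A2 (0.98 and 0.87), Lgals4 (0.98 and 0.83) and Ctss (0.97 and 0.82). RT1-CE16 and RT1-A2 belong to the class I histocompatibility family, whose copies 1 probe may not tell apart, and Krt20 is a keratin of mature intestinal epithelium. For Guca2b they were Mme (0.98 and 0.96), Hsd17b13 (0.98 and 0.94), Dgat1 (0.98 and 0.95), Cck (0.97 and 0.95) and Khk (0.97 and 0.95). Mme encodes a brush border peptidase, Dgat1 an enzyme of fat synthesis, Cck a hormone of proximal endocrine cells and Khk the fructose kinase.

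For Gucy2c the closest genes were Ctss (0.99 and 0.92), Cldn4 (0.98 and 0.93), S100a10 (0.98 and 0.91), Tpsg1 (0.98 and 0.87) and Nlrc4 (0.98 and 0.87). Ctss encodes a lysosomal protease, Cldn4 a tight junction protein and Nlrc4 a sensor of bacterial proteins. Ranked over the 12 bowel samples alone, other genes led for Gucy2c, namely Specc1l, Ddah2, Sgsm3, Klf4 and Coro1c (0.99 to 0.97), while Mme and Cck stayed among the first 5 for Guca2b, and RT1-CE16 and Krt20 for Guca2a. Between the members, r over 15 samples was 0.97 for Guca2a with Gucy2c, 0.73 for Guca2a with Guca2b and 0.57 for Guca2b with Gucy2c. Over the 12 bowel samples it was 0.74, 0.14 and -0.48. The points share arrays and scaling factors, and these values are a description.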

How the data were processed

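Of the 2 channels in a scanner file, the one with the sample's labelled dye was read and the other was left out. Per the file headers, the deposited intensity is the processed signal, with background subtracted and dyes normalised by the scanner software (versions 8.5.1.1 to 10.1.1.1). The deposited value table held the same intensities within 0.02 on the log2 scale for 100.0% of spots. Aligners do not apply, and further steps of the submitters are not given in the sources used here. Here the log2 processed signal minus the 75th percentile of each sample was taken, without spots flagged as non-uniform or outlying. Tested probes (38835) had to pass the scanner's well-above-background call in all samples of some segment. A gene (33099) was represented by its brightest probe. Names came from the scanner files, updated through RefSeq: 10868 probes by accession, 6414 by current and 4042 by older symbol, while 19688 kept the file's name.

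One limma model (version 3.58.1, R 4.3.3) covered all 15 samples. Its fixed terms were segment and dye, the slide was a random block with correlation 0.36, 9 residual degrees of freedom remained, and eBayes used an intensity trend. Tests were two-sided, Benjamini-Hochberg adjusted over all genes, and called at adjusted p under 0.05. The dye term called 0 genes (limma, 628 at unadjusted p under 0.05), and the members' dye effects were -0.35, -0.33 and -0.44. Slide and scan day followed the segments apart from the 3 arrays that duodenum and jejunum shared, so for other pairs batch and segment cannot be told apart. The files of all 3 colon samples name the same slide. Colon 1 (Cy3) and colon 2 (Cy5) were scanned on the same day and colon 3 (Cy5) on another day. How far these samples are independent cannot be told from the files.

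The number of arrays limits precision. Named by rule are the members, at most 5 called genes per role by size of trend, Prkg2, Cftr, Slc9a3, Pde5a and Nherf4, and the 5 genes most like each member. Pde6d and cell type markers are named besides. Members and lists were chosen with earlier results of these data known. Alternatives covered background correction, scaling, filters, saturation, blocks, and each sample left out.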

Additional observations from a re-analysis of the deposited data

How the results depend on the processing

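Of 15 results on the members between neighbouring segments and along the bowel, those that changed were these. With normexp (offset 50; colon files gave median in place of mean signals) Guca2a ileum minus jejunum was -0.75, colon minus ileum reversed to -0.17 and the trend fell to 0.34, while Guca2b colon minus ileum became called at -1.45. With quantile normalisation the Guca2a values were -0.073 and 0.25 for the first 2 of these. Without flagged saturated spots they were -1.58 and 1.61, and without an intensity trend ileum minus jejunum was -1.73. Guca2a jejunum minus duodenum was 2.16 without the array block. Guca2b jejunum minus duodenum became called at 1.47 without the dye term and at 1.35 with colon 3 as an array of its own. Without duodenum 2 and jejunum 1 (chosen after seeing the data), Guca2a ileum minus jejunum was -1.17 and Gucy2c ileum minus jejunum turned to 0.15. Leaving out spots with any saturated pixel gave no Guca2a value for the jejunum. Guca2a values against the jejunum or ileum rest on spots at the scanner limit. The cause of these changes was not tested.

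Gucy2c ileum minus duodenum, 0.03 and not called, turned to -0.10 with normexp, -0.037 with scan day as random block and -0.03 without the stomach. Guca2a colon minus jejunum, not called, turned to -0.92 with normexp and -0.042 with the percentile over probes detected in all samples.

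With each of the 15 samples left out in turn, duodenum minus stomach ran from 5.74 to 6.08 for Guca2a, 3.52 to 3.83 for Guca2b and 5.30 to 5.75 for Gucy2c, and the F test called all 3 members each time. Jejunum minus duodenum ran from 1.78 to 2.44 for Guca2a, 1.15 to 1.80 for Guca2b (called without jejunum 2, ileum 2 or colon 3, adjusted p of 0.0475, 0.0205 and 0.0427, limma) and 0.02 to 0.72 for Gucy2c. Ileum minus jejunum ran from -2.10 to -1.23 for Guca2a (call lost without jejunum 1, ileum 1 or ileum 3), -2.83 to -1.92 for Guca2b and -0.80 to 0.14 for Gucy2c (above 0 without jejunum 1). Colon minus ileum ran from 1.70 to 2.26 for Guca2a (call lost without colon 1), -1.27 to -0.36 for Guca2b and 2.42 to 2.78 for Gucy2c. Trends ran from 0.48 to 0.62 for Guca2a, -0.83 to -0.72 for Guca2b and 0.70 to 0.80 for Gucy2c, and the ligand difference from 1.20 to 1.39 per segment. Gucy2c ileum minus duodenum ran from -0.16 to 0.21 and Guca2a colon minus jejunum from -0.041 to 0.62. Pathway genes called in the F test numbered 36 to 50, rising 13 to 19 and falling 8 to 14.

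The replicate numbers showed no clear pairing of the samples. Over 30 same-numbered pairs, deviations from the segment means correlated at -0.42 to 0.30, above 0.1 in 6. The 3 pairs on shared arrays stood at 0.49 to 0.55. Duodenum 3 and stomach 2, of unlike numbers and on separate arrays, stood at 0.505. Values of that size thus also arise without a shared number or array, and whether samples shared an animal or isolation cannot be decided from them. With the replicate block, Guca2a ileum minus jejunum was -1.63 and colon minus ileum 1.78, neither called, and no other call changed. The Guca2a, Guca2b and Gucy2c trends were 0.56, -0.77 and 0.76 with the block.

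Of 27 genes of the role lists named by rule 18 kept their side of the threshold and direction under normexp, both other scalings and no filter. The Slc9a3 trend turned to -0.028, -0.01 and -0.048 under the first 3. The counts of pathway genes stayed within 1.5 times under each alternative but leaving out duodenum 1 (8 falling).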
